A study of Mus musculus with 6 samples.

Results

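The SLC25 family of mitochondrial carriers was followed in mouse leukaemia cells with and without Prmt6, the gene of an arginine methyltransferase. Its members were taken by symbol, as every gene whose name starts with Slc25a and a number. There were 48 of them among the 30037 named genes, and 43 were measured well enough to be tested, meaning that 3 or more libraries reached a value of 1. The cells were L-GMP cells, a leukaemic fraction that resembles granulocyte-macrophage progenitors, sorted from marrow of 8 to 10 week old mice that had acute myeloid leukaemia (AML). The wild-type group (WT) and the Prmt6-/- group each had 3 libraries of polyadenylated RNA, and both carried the leukaemia. The labels name neither the leukaemia's driver nor the deleted part of Prmt6, and they leave unsaid whether each library was a mouse of its own. The p-values therefore cover the spread among these libraries, which may be technical.

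SLC25 proteins sit mostly in the inner mitochondrial membrane, which is otherwise closed to charged metabolites, and exchange nucleotides, phosphate, amino acids, carboxylates and cofactors between the matrix and the cytosol. Most are built from repeats of a pair of membrane-spanning helices. The ADP/ATP and phosphate carriers feed ATP synthase. The aspartate-glutamate and oxoglutarate-malate carriers are the transport steps of the malate-aspartate shuttle, which moves the electrons of cytosolic NADH into mitochondria. Other members export citrate for lipid synthesis, import acylcarnitines for fatty acid oxidation, or supply iron and glycine for haem.

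Promoters of 4 genes are printed because they belong to the carriers with the widest falls and to the paralogue of the first of them. Slc25a12 and Slc25a13 encode the paired aspartate-glutamate carriers, of which the first fell and the second did not pass the test. Slc25a11 encodes the carrier that works with them in the shuttle, and Slc25a45 had the second-widest fall. Each sequence is the 250 bases before the gene's start in RefSeq (GRCm38.p6), read 5′ to 3′ on the gene's strand. The windows are chr2:71367756-71368005 on the minus strand for Slc25a12, chr6:6217174-6217423 on the minus strand for Slc25a13, chr11:70647040-70647289 on the minus strand for Slc25a11 and chr19:5877572-5877821 on the plus strand for Slc25a45. Capitals mark matches to 6 motifs, searched on both strands. The motifs were the NRF1 core GCGCATGC, the palindrome TCTCGCGA, the E-box CACGTG, the ETS core CCGGAAG, the GC box GGGCGG and the CCAAT box CCAAT.
Slc25a12: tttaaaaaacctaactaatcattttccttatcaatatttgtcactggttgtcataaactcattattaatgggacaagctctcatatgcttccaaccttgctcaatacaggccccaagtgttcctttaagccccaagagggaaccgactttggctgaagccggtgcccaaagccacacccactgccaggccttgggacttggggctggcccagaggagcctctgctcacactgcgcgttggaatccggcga
Slc25a13: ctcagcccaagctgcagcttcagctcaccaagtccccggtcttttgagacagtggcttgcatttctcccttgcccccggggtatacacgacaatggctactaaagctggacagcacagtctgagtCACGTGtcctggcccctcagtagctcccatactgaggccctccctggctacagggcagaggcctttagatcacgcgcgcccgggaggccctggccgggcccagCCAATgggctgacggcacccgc
Slc25a11: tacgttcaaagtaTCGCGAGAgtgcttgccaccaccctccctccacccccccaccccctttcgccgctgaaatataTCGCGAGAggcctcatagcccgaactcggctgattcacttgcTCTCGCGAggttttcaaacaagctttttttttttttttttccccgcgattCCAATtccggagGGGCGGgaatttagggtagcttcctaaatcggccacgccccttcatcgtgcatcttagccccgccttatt
Slc25a45: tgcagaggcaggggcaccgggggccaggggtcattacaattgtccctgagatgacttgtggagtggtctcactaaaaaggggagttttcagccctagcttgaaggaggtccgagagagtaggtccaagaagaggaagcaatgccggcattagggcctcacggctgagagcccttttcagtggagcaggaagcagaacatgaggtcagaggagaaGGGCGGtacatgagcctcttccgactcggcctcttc

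The Slc25a12 window held none of the 6 motifs, and its GC content was 49.6%. The Slc25a13 window, at 62.8% GC, held an E-box and a CCAAT box. The Slc25a11 window, at 53.2% GC, held 3 copies of the palindrome, which appear as TCTCGCGA or as its other strand, with a CCAAT box and a GC box nearer to the start. That window lies inside the longer span that GENCODE M21 gives Slc25a11, and 7.37% of the gene's 31-base words also occur in Rnf167. The Slc25a45 window held a GC box, at 56.4% GC. Among 32851 RefSeq windows of the same length, the palindrome was present in 0.86%, the NRF1 core in 2.26%, the E-box in 6.02%, the ETS core in 6.91%, the GC box in 32.7% and the CCAAT box in 33.9%. No matches overlap in the windows shown, and a match is a description of the sequence only.

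Values are the authors' normalized log2 expression values, on which a difference of 1 is a 2-fold change. They are drawn in at low levels, so differences of weakly expressed genes are understated, and read depth is not known from them. Differences are Prmt6-/- minus wild type, and a gene was called changed at an adjusted p under 0.05 in limma, corrected over 15454 genes. Prmt6 itself was at 7.82, 7.60 and 7.41 in the wild-type libraries and at 5.42, 5.46 and 5.48 in the knockout libraries. It fell by 2.16 (standard error, SE, 0.0977, limma adjusted p = 3.57e-06), in the direction of the labels. In the authors' deposited table its log2 fold change was -7.66. Of 6 surface genes listed to describe the sorted fraction, Kit, Cd34 and Fcgr3 lay between 9.66 and 13.4 in the 6 libraries. Ly6a and Il7r lay between 2.58 and 4.09. The list does not say which of its genes should be present in the fraction and which absent. Fcgr2b fell by 0.88, and the summed level of all 6 listed genes was 14.08 to 14.20 in WT and 13.85 to 14.00 in Prmt6-/- libraries, without overlap. Kit differed by -0.29 and did not pass in limma (adjusted p = 0.0961), and its adjusted p in the authors' deposited table was 0.0481. The median of all tested genes lay between 7.72 and 7.75 in every library.

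Among the carriers 13 changed, 8 down and 5 up. That was 30.2% of the 43 tested, beside 33.0% of all genes tested. Those that fell were 18.6% of the carriers tested against 18.0% of all genes, and those that rose were 11.6% against 15.0%. These shares lie near the background. Its median difference was -0.00077, against 0.0056 over all genes, and the median size of a difference was 0.0893 against 0.108. Values of the 2 groups did not overlap for 18 carriers, or 41.9%, beside 47.4% of all genes. All 13 changed carriers were among the 35 with a mean value of at least 5, where 37.1% changed against 42.9% of all genes at that level. By class of carrier, the share that changed ran from 0% of 2 iron carriers to 40.0% of 5 carboxylate and acylcarnitine carriers. The counts by class below are to be read beside these shares of all genes. In the authors' deposited table, 31.0% of the same genes passed at an adjusted p under 0.05, and 13 carriers did. By both tests 12 carriers passed, Slc25a35 passed only in limma and Slc25a16 only in the authors' deposited table. Under quantile normalization 6 carriers rose and 5 fell, and under centring that depends on expression level 6 rose and 6 fell. On leaving out wild-type library 1, 2 rose and 7 fell, and on leaving out knockout library 2, 3 rose and 7 fell.

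**Figure D1:**
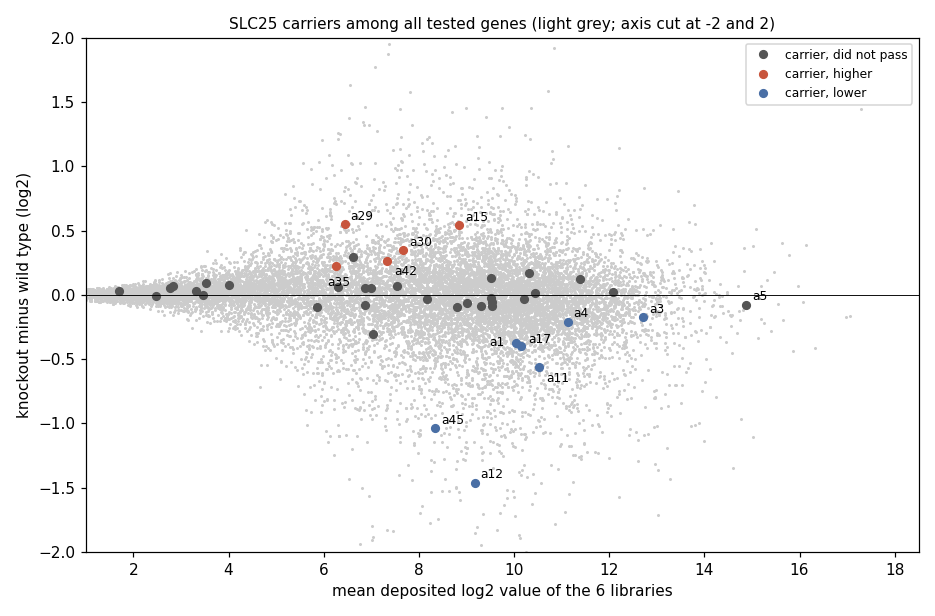
Difference between Prmt6-/- and wild-type libraries (log2) against the mean log2 value of the 6 libraries, for the tested genes (light grey) and the tested SLC25 carriers described in the text. The vertical axis ends at -2 and 2, so genes beyond are not drawn. The changed carriers and Slc25a5 are named without the prefix Slc25, and Slc25a12 and Slc25a45 lie lowest of the carriers.

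Carriers of adenine nucleotides and phosphate supply ATP synthase with its substrates and export its product, and among 6 tested members 2 fell and none rose. Slc25a5, the ADP/ATP carrier of dividing cells, was the most highly expressed SLC25 gene, at 14.84, 14.92 and 14.98 in wild type and 14.78, 14.85 and 14.86 in the Prmt6-/- libraries. The groups overlapped, and the difference of -0.08 did not pass (95% interval -0.183 to 0.025, limma adjusted p = 0.225, exact two-sided permutation p = 0.3). Of its 31-base words, 49.4% also occur in other annotated genes, 30.4% in Gm5560 alone, so its value could be shared with those copies.

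Slc25a3, the phosphate carrier, stood at 12.86, 12.75 and 12.81 in wild type and at 12.62, 12.66 and 12.60 in the knockout. Every knockout library was below every wild-type library, and the gene fell by 0.17 (SE 0.0468, limma adjusted p = 0.0196). The exact permutation p was 0.1, the smallest that 3 against 3 libraries can give. The call ended under quantile normalization (-0.06), under level-dependent centring (-0.12), without wild-type library 1 (-0.15) and without knockout library 3 (-0.16). Over 15 alternatives its adjusted p ran from 0.00652 to 0.378.

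Slc25a4, the ADP/ATP carrier best known from heart and muscle, was at 11.21, 11.23 and 11.25 in wild type and 10.92, 11.08 and 11.06 in the knockout. Its groups did not overlap, and it fell by 0.21 (SE 0.0575, limma adjusted p = 0.0211). The call ended under quantile normalization (-0.11), under level-dependent centring (-0.16), and without wild-type library 2 (-0.21), wild-type library 3 (-0.20) or knockout library 1 (-0.16). Its adjusted p over the alternatives ran from 0.00889 to 0.134. The calcium-dependent ATP-Mg/phosphate carriers did not pass, with differences of 0.17 for Slc25a24, -0.10 for Slc25a25 and -0.00077 for the weakly expressed Slc25a23. Slc25a24 lies 1.1 Mb from Prmt6. Within 20 Mb of Prmt6, 36.0% of 289 tested genes changed, beside 33.0% of all.

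Amino acid carriers held the widest fall of the family and its 2 widest rises. Of 12 tested members, Slc25a12 fell, Slc25a15 and Slc25a29 rose, and 9 did not pass. Slc25a12 encodes aralar, the calcium-regulated aspartate-glutamate carrier that brings glutamate into mitochondria and sends aspartate out. The gene spans chr2:71271063-71367749 on the minus strand of GRCm38. Its values were 9.93, 9.78 and 9.99 in wild type and 8.15, 8.30 and 8.86 in the Prmt6-/- libraries.

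The highest knockout library was below the lowest wild-type library for Slc25a12. The gene fell by 1.46 (SE 0.160, limma adjusted p = 0.000197). On the linear scale it fell by 63.8%. In the authors' deposited table the log2 fold change was -1.84. Knockout library 3 was the highest of its group, and without it the difference was -1.68. The same library had the highest summed neutrophil markers, at 10.8 against 9.72 to 10.1 in the other 5, and their part in the result was not tested. In bulk samples, fewer cells of a type and less RNA per cell cannot be told apart.

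Slc25a13 encodes citrin, the paralogous aspartate-glutamate carrier that is prominent in liver. Its levels were 9.27, 9.26 and 9.53 in wild type and 9.17, 9.37 and 9.26 in the knockout, which overlapped. The difference was -0.09 (95% interval -0.290 to 0.114, limma adjusted p = 0.491). The balance between both carriers was therefore set out as a share, after dividing linear values by exon length. That length joins all annotated exons of a gene, 7342 bases for Slc25a12 and 3798 for Slc25a13, and may differ from the transcripts expressed. Slc25a12 made up 45.1%, 42.6% and 41.5% of the pair in wild type and 20.4%, 19.7% and 28.2% in the knockout.

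That is 43.1 ± 1.83% against 22.8 ± 4.73% (SD, n = 3 each), a change of the log2 ratio by -1.38 (exact two-sided permutation p = 0.1, or 0.15 adjusted over 3 pairs; 0.1 is the smallest possible). By this measure Slc25a13 was the larger part of the pair in all 6 libraries, by a wider margin in the knockout. Before the division, Slc25a12 was higher than Slc25a13 in wild type (means of 9.90 and 9.35) and lower in the knockout (8.44 and 9.27). The larger part in wild type therefore depends on the lengths used, and the change of the log2 ratio does not. In the pair of ADP/ATP carriers, Slc25a5 made up 94.8 ± 0.166% in WT and 95.3 ± 0.141% in Prmt6-/- libraries (SD, n = 3 each, exact permutation p = 0.1, adjusted 0.15). In the pair of ATP-Mg/phosphate carriers, Slc25a24 made up 85.5 ± 1.84% and 87.7 ± 1.21% (SD, n = 3 each, exact permutation p = 0.2, adjusted 0.2), and the groups overlapped. The pairs were chosen with values of these libraries known.

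**Figure D2:**
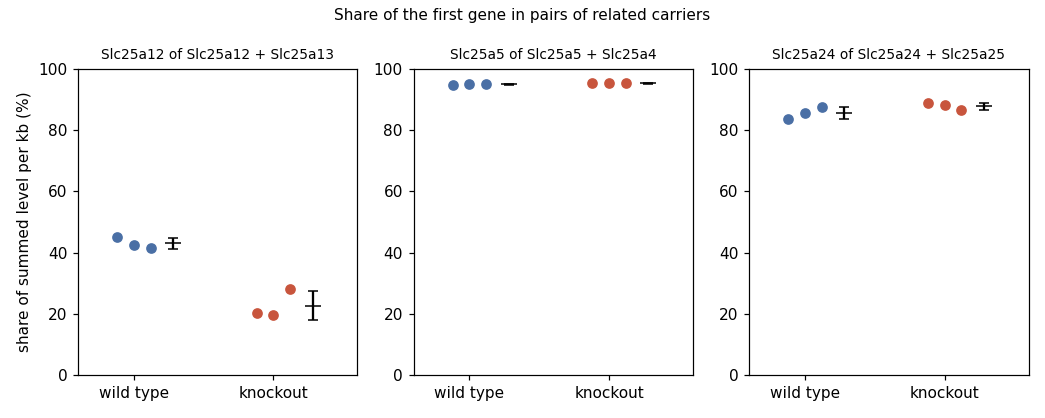
Share of the first gene in 3 pairs of related carriers (percent of the pair's linear value per kilobase of exon), with a point for each library and each group's mean and SD beside them. The Slc25a12 share lies between 41.5% and 45.1% in wild type and between 19.7% and 28.2% in the knockout.

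Slc25a15, the ornithine carrier of the urea cycle and of polyamine supply, had values of 8.59, 8.61 and 8.53 in wild type and 9.21, 9.18 and 8.97 in the knockout. All knockout libraries were above all wild-type libraries, and it rose by 0.54 (SE 0.0759, limma adjusted p = 0.000757). Slc25a29, a carrier of basic amino acids such as arginine and lysine, was weakly expressed. It stood at 6.33, 6.16 and 6.0 in wild type and 6.68, 6.79 and 6.66 in the knockout.

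Slc25a29 therefore had no overlap either, and it rose by 0.55 (SE 0.0887, limma adjusted p = 0.00156). In the authors' deposited table its log2 fold change was 1.42. Over the 13 changed carriers, the difference found here divided by the fold change in the authors' deposited table ran from 0.349 for Slc25a35, with a mean level of 6.26, to 0.910 for Slc25a3, with a mean level of 12.7. Of the other amino acid and glutathione carriers, Slc25a40, related to the glutathione carrier, differed by 0.29 without overlap (limma adjusted p = 0.0804, range 0.0361 to 0.245 over the alternatives), and passed with the replicate number as a block (0.0361). Slc25a39, the glutathione carrier, was among the highest in the family and differed by 0.02. Slc25a38, which supplies glycine to haem synthesis, differed by -0.03.

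The remaining differences in the class were small. They were -0.03 for the glutamate carrier Slc25a22 and 0.03 for its weakly expressed relative Slc25a18. They were -0.09 for the S-adenosylmethionine carrier Slc25a26 and -0.09 for the branched-chain amino acid carrier Slc25a44. Slc25a2, a second ornithine carrier, was near 2.8 and differed by 0.07 (limma adjusted p = 0.0926, range 0.0354 to 0.235), passing without knockout library 3 (0.09).

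**Figure D3:**
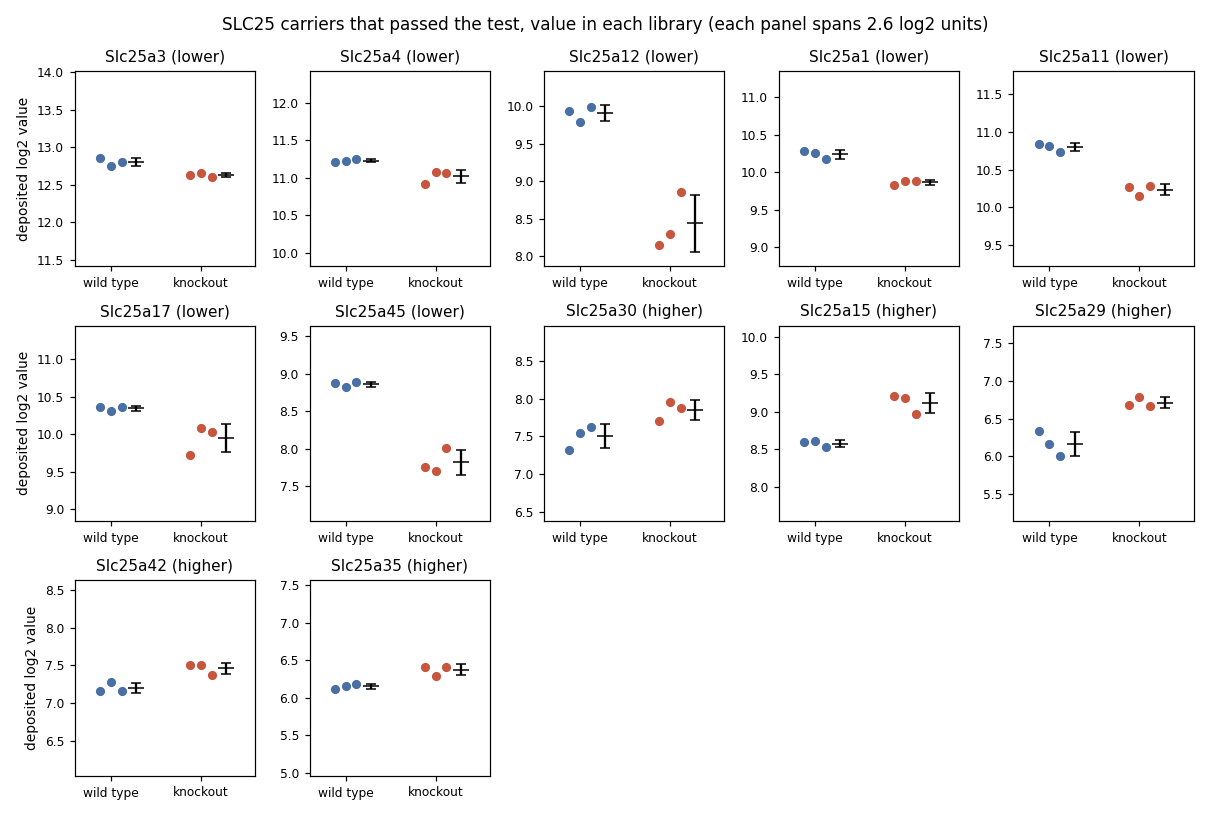
Log2 values of the changed carriers described in the text, in each of the 3 wild-type and 3 Prmt6-/- libraries, with each group's mean and SD beside its points. In every panel the groups do not overlap.

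Carboxylate carriers showed falls in 2 of 5 tested members, and none rose. Slc25a11, the oxoglutarate-malate carrier of the malate-aspartate shuttle, was at 10.84, 10.81 and 10.74 in wild type and 10.27, 10.15 and 10.28 in the knockout. It fell by 0.56 (SE 0.0589, limma adjusted p = 0.000156), with all 3 knockout libraries below the wild type. Of the shuttle's transport steps, Slc25a12 for aspartate and glutamate and Slc25a11 for oxoglutarate and malate fell. Slc25a13, the other aspartate-glutamate carrier and per kilobase of exon the larger part of its pair, differed by -0.09 and did not pass. Of all genes with a mean of at least 5, 24.3% fell.

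Slc25a1, the citrate carrier that provides cytosolic citrate for fatty acid and sterol synthesis, measured 10.28, 10.25 and 10.17 in wild type and 9.82, 9.88 and 9.88 in the Prmt6-/- libraries. The groups were apart, and it fell by 0.37 (SE 0.0564, limma adjusted p = 0.00112). Slc25a20, the carnitine-acylcarnitine carrier through which long-chain acyl groups reach fatty acid oxidation, was at 9.0, 9.07 and 9.06 in wild type and 9.02, 8.95 and 8.98 in the knockout. Its groups overlapped, with a difference of -0.06 (95% interval -0.193 to 0.0666, limma adjusted p = 0.441, exact permutation p = 0.2). The dicarboxylate carrier Slc25a10 differed by -0.06, and the weakly expressed oxodicarboxylate carrier Slc25a21 by 0.03 (limma adjusted p = 0.242, range 0.0443 to 0.510), passing without knockout library 1 (0.05).

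Among 8 tested carriers of nucleotides, coenzymes and vitamins, 2 fell and 1 rose. Slc25a17, a peroxisomal carrier of coenzyme A and other cofactors, was at 10.36, 10.31 and 10.37 in wild type and 9.73, 10.08 and 10.04 in the knockout. It fell by 0.40 (SE 0.0894, limma adjusted p = 0.00869), knockout library 1 being the lowest of 3 libraries that all lay below wild type. Slc25a42, the mitochondrial coenzyme A carrier, went the other way, at 7.16, 7.27 and 7.16 in wild type and 7.51, 7.50 and 7.38 in the knockout. Its groups were apart, and it rose by 0.26 (SE 0.0690, limma adjusted p = 0.0174). Without wild-type library 1, knockout library 1 or knockout library 2 its difference was 0.24 and the call ended, with an adjusted p of 0.0111 to 0.0665 over the alternatives.

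Slc25a16, a carrier linked to coenzyme A, had values of 7.43, 7.22 and 6.95 in wild type and 6.79, 6.95 and 6.93 in the knockout. They overlapped, and the difference of -0.31 did not pass (limma adjusted p = 0.0685, range 0.00938 to 0.199). It passed without wild-type library 3 (-0.43), with library weights and in the authors' deposited table. The NAD carrier Slc25a51 differed by 0.02, the folate and FAD carrier Slc25a32 by 0.05, and the pyrimidine nucleotide carriers Slc25a33 and Slc25a36 by -0.08 and -0.03, none of which passed.

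Neither iron carrier passed. Slc25a37, or mitoferrin 1, the iron importer of red cell precursors, was at 9.44, 9.52 and 9.37 in wild type and 9.47, 9.75 and 9.52 in the knockout, a difference of 0.13 with overlap (limma adjusted p = 0.259). Slc25a28, or mitoferrin 2, was near 2.5 in all libraries and differed by -0.01. Relatives of the uncoupling proteins comprised 3 tested members, of which Slc25a30 rose. Its values were 7.32, 7.55 and 7.63 in wild type and 7.70, 7.96 and 7.88 in the knockout, narrowly apart, with a rise of 0.35 (SE 0.0983, limma adjusted p = 0.0248).

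The Slc25a30 call ended without wild-type library 1 (0.26), knockout library 2 (0.29) or knockout library 3 (0.33), with an adjusted p of 0.00861 to 0.0950 over the alternatives. The brain-type relatives Slc25a14 and Slc25a27 differed by 0.07 and 0.08 and did not pass.

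The last group gathers members given no substrate here, and of 7 tested 1 fell and 1 rose. Slc25a45, at chr19:5877808-5885878 on the plus strand, had values of 8.87, 8.82 and 8.89 in wild type and 7.75, 7.70 and 8.01 in the knockout. No libraries overlapped, and it fell by 1.04 (SE 0.0863, limma adjusted p = 5.25e-05). On the linear scale it fell by 51.3%. In the authors' deposited table the log2 fold change was -1.52. Slc25a35 was at 6.11, 6.16 and 6.18 in wild type and 6.42, 6.29 and 6.41 in the knockout.

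Slc25a35 rose by 0.22 without overlap (SE 0.0634, limma adjusted p = 0.0256). Of its 31-base words, 27.4% are shared with Rangrf, an overlapping gene, so its value is uncertain. The call ended without wild-type library 1 (0.20), wild-type library 2 (0.22), knockout library 1 (0.20) or knockout library 3 (0.20), with an adjusted p of 0.0125 to 0.0806 over the alternatives, and the authors' deposited table gave 0.0566. Slc25a46, an outer membrane member that acts in mitochondrial dynamics, differed by 0.12 without overlap (limma adjusted p = 0.0894, range 0.0106 to 0.25). It passed under quantile normalization (0.22), under level-dependent centring and without the mean-variance trend.

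Slc25a43, Slc25a47, Slc25a48 and Slc25a53 differed by 0.06, 0.09, 0.05 and 0.05 and did not pass. Slc25a31, Slc25a34, Slc25a41, Slc25a54 and the pseudogene Slc25a5-ps were not tested, with values between -1.97 and 0.88.

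**Figure D4:**
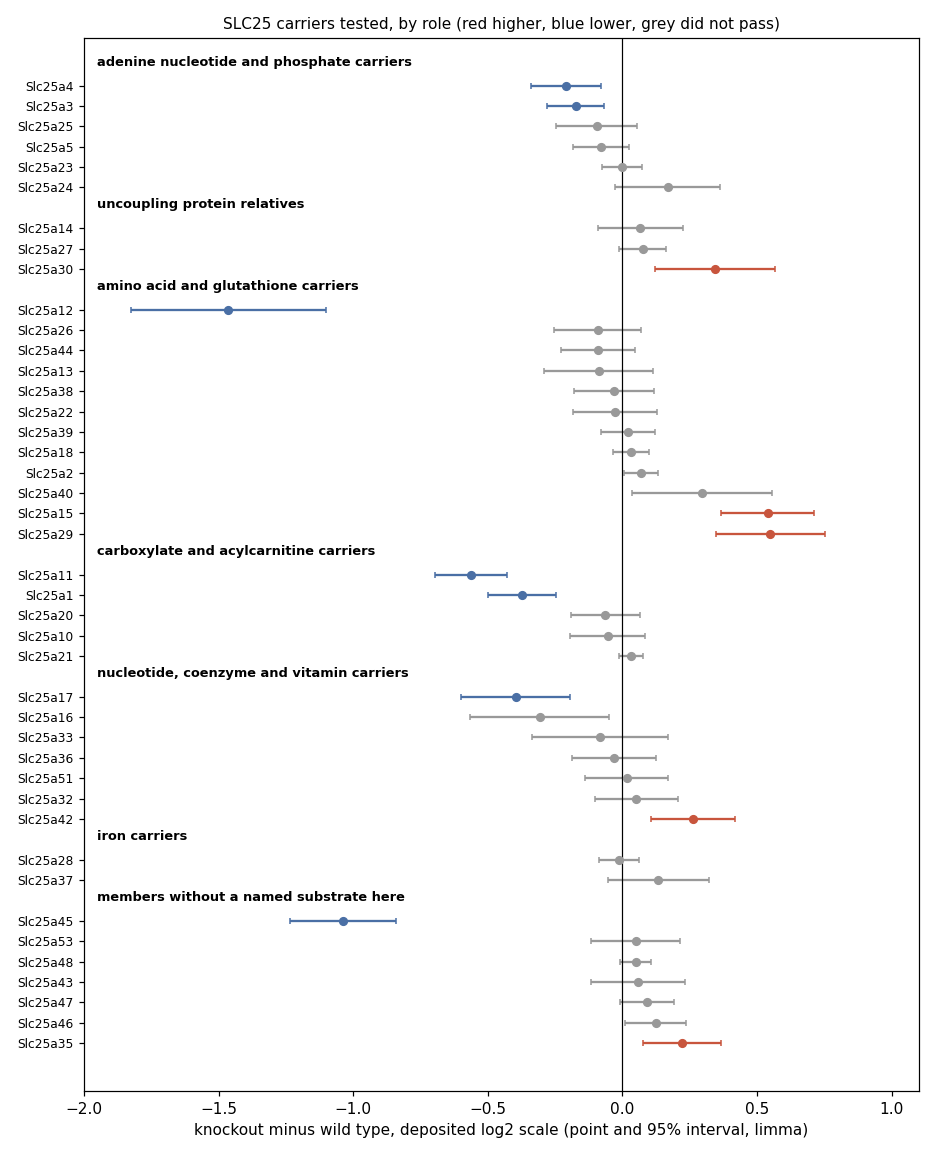
Difference between Prmt6-/- and wild-type libraries (log2, with 95% intervals) for the tested SLC25 carriers described in the text, grouped by what they carry. Blue points fell, red points rose and grey points did not pass, and Slc25a12 and Slc25a45 are the furthest below 0.

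Levels between carriers were compared per kilobase of exon on the log2 scale, for the 35 members with a mean of at least 5. In wild type the order was led by Slc25a5 at 14.2, followed by Slc25a39 at 10.6, Slc25a3 at 10.3, Slc25a4 at 10.0, Slc25a11 at 9.71 and Slc25a1 at 9.12, and it ended with Slc25a40 at 3.40. Slc25a12 stood at 7.03, below Slc25a13 at 7.43. Without the division by length that order was the reverse, and so was the order of Slc25a39 (12.08) and Slc25a3 (12.80). The family made up 0.408% to 0.416% of the summed linear values of a wild-type library and 0.398% to 0.403% of a knockout library, without length correction and without overlap. The 10 most abundant genes of a library took up 5.32% to 5.61% in wild type and 7.17% to 7.59% in the knockout, and the part of that in the carriers' values was not tested. Slc25a5 made up 46.1% to 48.8% of the family's sum. The 4 most abundant carriers by this order thus include 2 that fell slightly and 2 that did not pass, while Slc25a45 and Slc25a12, with the widest falls, had ranks 15 and 16 of 35.

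Genes that work beside the carriers were described from lists chosen with earlier results of these libraries known. Over the lists of mitochondrial genes, counts are given beside the 33.0% of all genes that changed. Median levels of these lists ran from 8.68 to 11.7, and 42.9% of all genes with a mean of at least 5 changed. Of the 10 malate-aspartate shuttle and citrate enzymes, 4 fell and 1 rose, with a median difference of -0.06. Idh2, the mitochondrial NADP-dependent isocitrate dehydrogenase, fell by 1.04 (SE 0.0827, limma adjusted p = 4.25e-05). Mdh2, the matrix malate dehydrogenase, rose by 0.20 (0.32 under quantile normalization), and its cytosolic partner Mdh1 fell by 0.22, a call that ended under quantile normalization (-0.13). Citrate synthase, Cs, fell by 0.19, a call that ended under quantile normalization (-0.09), under level-dependent centring (-0.14), and without wild-type library 3 (-0.15), knockout library 1 (-0.18), 2 (-0.20) or 3 (-0.19). The count was 3 of 10 under quantile normalization and without any of the 3 knockout libraries in turn. The aspartate transaminases of the shuttle were named after their values were seen. Got1, the cytosolic enzyme, differed by 0.02 and did not pass, and Got2, the mitochondrial enzyme, fell by 0.15 in a call that ended in 9 of 15 alternatives, leaving out any single library included (-0.13 to -0.17). Its difference was -0.06 under quantile normalization.

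Of 4 tested carnitine shuttle enzymes, which flank Slc25a20, 2 fell and the median difference was -0.29. Crat, the carnitine acetyltransferase, fell by 0.70 (SE 0.0590, limma adjusted p = 5.41e-05), and Cpt1a, the acyltransferase of the outer membrane, fell by 0.49 (SE 0.0636, limma adjusted p = 0.000468). Of 3 tested relatives in the wider carrier family, both Mtch2, an outer membrane insertase, and Ucp2, the uncoupling protein of blood cells, fell, by 0.74 and 0.71 (limma adjusted p = 3.63e-05 and 4.23e-05). Mtch1 differed by -0.34 and did not pass, and Ucp1 and Ucp3 were not tested.

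Of 17 ATP synthase subunits and regulators, 5 fell and 2 rose, with a median of -0.09. Atpif1, the inhibitor of the enzyme's reverse reaction, fell by 1.15, and Atp5g3, 1 of 3 genes for the c subunit, fell by 0.63. Atp5g1, another c subunit gene, rose by 0.48. Atp5g2, the other c subunit gene, named after its values were seen, differed by -0.10 and did not pass (limma adjusted p = 0.336). Atp5l fell by 0.18, a call that ended under quantile normalization (-0.08), level-dependent centring (-0.13), and without wild-type library 3 (-0.15) or knockout library 2 (-0.17). The count was 4 under level-dependent centring and on leaving out wild-type library 2 or 3, and it was 3 on leaving out knockout library 2.

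In the machinery that imports carriers into the inner membrane, 3 of 16 genes fell and 1 rose, with a median of -0.01. Timm10, a chaperone of the intermembrane space, fell by 0.52, Tomm20, an outer membrane receptor, fell by 0.22, and Timm8b fell by 0.28 while Timm8a1 rose by 0.25. The Timm8b call ended without wild-type library 2 (-0.27), knockout library 1 (-0.22) or knockout library 2 (-0.26), and the Tomm20 difference was -0.12 under quantile normalization, where the count was 7. Of 21 other mitochondrial membrane transporters, 6 fell and 3 rose, with a median of -0.05. The pore genes Vdac2 and Vdac3 fell by 0.69 and 0.27, the serine transporter Sfxn1 fell by 0.38, and Sfxn5 rose by 0.31. Vdac3 differed by -0.17 under quantile normalization.

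Of 13 genes of mitochondrial biogenesis and genome upkeep, 6 rose, none fell and 7 did not pass, with a median of 0.09. Differences were below 0 for 4 of the 13. Twnk, the mitochondrial helicase, rose by 0.64, the DNA polymerase Polg by 0.49, and the coactivators Pprc1 and Ppargc1b by 0.36 and 0.33 (limma adjusted p = 0.000724, 0.00234, 0.00222 and 0.00940). Of 13 haem and iron-sulphur cluster enzymes, Alad rose by 0.44 and Urod fell by 0.37, both early steps of haem synthesis, with a median of 0.05. Of 16 folate, thiamine, coenzyme A and NAD enzymes 2 rose, Nmnat3 by 0.50 and Flad1 by 0.22, with a median of -0.02. That count was 4 under quantile normalization, level-dependent centring and without wild-type library 3, and 5 with library weights.

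Markers of other cell types were read beside the 33.0% of all genes that changed. Of 5 monocyte and macrophage markers 3 fell and 1 rose, and their summed level was 12.66 to 12.75 in wild type and 12.04 to 12.14 in the knockout. Csf1r fell by 1.83, Cd68 by 0.94 and Adgre1 by 0.33, and Ccr2 rose by 1.07. The Adgre1 call ended under quantile normalization (-0.25). The summed B cell markers were 9.54 to 9.68 against 8.32 to 8.69, with Cd79b, the 1 of 3 tested that passed, falling by 1.15. Cd79b lay at 8.24 to 9.65, and the next highest B cell marker at 3.40 to 3.60. T and NK cell markers summed to 5.70 to 5.74 against 5.96 to 6.12, and Cd3d, the 1 of 4 tested that passed, rose by 0.44. Cd3d was the highest of them, at 5.13 to 5.71, and the next highest lay at 3.32 to 3.44. Differences were above 0 for 3 of the 4 tested and below 0 for 1. Neutrophil markers summed to 9.85 to 10.1 against 9.72 to 10.8, which overlapped. Camp, the 1 of 6 that passed, was called higher by 0.97, which ended without any one of the 3 wild-type libraries (0.85 to 1.04) and without the mean-variance trend. Without knockout library 3 the Camp difference was 0.57, and 3 of the 6 neutrophil markers passed. In that setting every listed neutrophil marker other than Camp had a lower mean in the knockout, so the others that passed fell. With all libraries, differences were above 0 for 2 of the 6 neutrophil markers and below 0 for 4.

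Erythroid markers summed to 6.41 to 6.42 against 6.46 to 6.52. Klf1, the 1 of 7 tested that passed, was called higher by 0.22, a call that ended without wild-type library 1 (0.22), wild-type library 3 (0.20) or knockout library 2 (0.17). It was weakly expressed, at 4.25 to 4.62. Differences were above 0 for 4 of the 7 tested erythroid markers and below 0 for 3. Megakaryocyte markers summed to 5.72 to 5.79 against 5.78 to 5.81, which overlapped, and none of 3 tested passed in limma.  The part of these cell type markers in the differences of the carriers was not tested.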

How the data were processed

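Polyadenylated RNA from L-GMP cells was sequenced in 3 wild-type and 3 Prmt6-/- libraries. The authors' processing used Trim Galore, kallisto and HOMER with build GRCm38, per the submitters' processing notes, which give no versions. The deposited values are normalized log2 expression values, and the authors' log2 fold changes, p-values and adjusted p-values come from HOMER's differential expression program run on a count table, per the file headers. The sources used here do not name the test behind the authors' p-values. Read depth is unknown, so no count model was used, and no pseudocount was needed.

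One row without a gene name was left out. The 15454 genes reaching 1 in 3 or more libraries were fitted in limma 3.58.1 (R 4.3.3) with a mean-variance trend and Benjamini-Hochberg adjustment, and the method was tested on simulated data. Exact permutation tests used scipy 1.17.1. Positions, exon lengths and shared 31-base words came from GENCODE M21, and promoters from RefSeq, where 36 members matched. Changed carriers are named with their values, other tested ones with their difference, and up to 4 changed genes of each list. Of the changed carriers, 1 is counted but not reported here by name or drawn, and neither are some marker genes. Got1, Got2, Atp5g2, Mtch1, Kit, Cd34, Fcgr3, Ly6a and Il7r were named outside this rule, after their values were seen. The members and lists were chosen with earlier results of these data known. Timm29, Mcub, Twnk and Adgre1 were matched by older symbols. Alternatives were other filters, quantile normalization, level-dependent centring, no trend, library weights, a replicate block, a pseudocount of 1, leaving out each library, and the authors' adjusted p.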

Additional observations from a re-analysis of the deposited data

How the results depend on the processing

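The carriers Slc25a1, Slc25a11, Slc25a12, Slc25a15, Slc25a17, Slc25a29 and Slc25a45, kept their direction and call in all 15 alternatives, and no changed carrier changed sign in any. The number of changed carriers ran from 9 to 14, and that of all genes from 3891 to 5406. Signs turned in carriers that did not pass. With library weights Slc25a23 was at 0.00204, Slc25a28 at 0.0013 and Slc25a36 at 0.0108. Under quantile normalization Slc25a5 was at 0.00069, Slc25a22 at 0.0234, Slc25a38 at 0.00921 and Slc25a36 at 0.0501, and Slc25a36 was at 0.00266 under level-dependent centring. Leaving out each library in turn gave -0.0205 to 0.0166 for Slc25a23, -0.141 to 0.00168 for Slc25a13, -0.0898 to 0.00999 for Slc25a22, -0.0594 to 0.00988 for Slc25a38, -0.0481 to 0.0152 for Slc25a28, -0.184 to 0.0212 for Slc25a33, -0.0855 to 0.0150 for Slc25a36, -0.0448 to 0.0737 for Slc25a51 and -0.0124 to 0.0383 for Got1. The cause was not tested. With a replicate block 14 carriers and 5074 genes changed. Deviations of same-numbered libraries correlated at 0.095, 0.073 and 0.172, and each library correlated best with its own number, a hint from the data and not the design. Read depth is unknown. Of the 8 tested carriers with a mean under 5, 0 passed in limma, beside 10.6% of all genes at that level. Slc25a2 alone of the 8 had an unadjusted limma p under 0.05, and the share of all genes under that unadjusted threshold is not given.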
